A study of Mus musculus with 8 samples.

Results

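A list of 10 genes of the choroid plexus epithelium was followed on arrays of cultured mouse cerebellar cells, with and without T3, the active thyroid hormone: Kcnj13, Slc6a20a, Slc22a8, Folr1, Aqp1, Clic6, Otx2, Ttr, Kl and Enpp2. These were selected on their T3 contrast, several having been seen with higher MAS5 signals under T3 on these same arrays, so their T3 differences are given as a description and were not tested. Of the 10 genes, 9 had a probe-set that the platform annotation assigns to that gene alone, 15 probe-sets in all, among 18193 genes and 45037 probe-sets. The 8 genes with a probe-set bright enough to be kept (12 probe-sets) stand among 10194 kept genes and 18015 kept probe-sets; Kl fell below that level, and Enpp2, which encodes the secreted enzyme autotaxin, was not analysed here.

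The choroid plexus is a sheet of epithelial cells folded into the ventricles of the brain, including the fourth ventricle beneath the cerebellum. It secretes cerebrospinal fluid by moving ions and water across its apical membrane, takes up vitamins from the blood and returns waste anions to it. Its cells also make transthyretin, the protein that carries thyroid hormone in the cerebrospinal fluid, and depend on the transcription factor Otx2 for their identity.

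The T3 group comprised 4 cultures, collected 6, 16, 24 or 48 h after T3 was added at 0.1 µM, and the untreated group 4 cultures kept for the same hours with the same changes of medium. All came from wild-type pups (P4 to P7 in the sample labels, P1 to P4 in the methods). Pooled cerebella were dissociated, plated in a supplemented medium without serum and held for 48 h before treatment. These conditions were meant to keep neurons alive at the expense of glia. The sources used here do not say whether the medium held T3 of its own, so untreated means without added T3. Each condition had 1 culture and 1 array, and both cultures of a time point came from 1 batch of cells. Whether the time points shared a batch is not given in the sources used here, so hours and batch cannot be told apart. The MAS5 signal of each array was scaled to a trimmed mean of 100, and its median lay between 14.8 and 17.7. Differences are log2 signal with added T3 minus log2 signal without added T3.

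The promoters of the 3 genes with the highest mean T3 difference are shown because all of them held the letters TAATC, the core of the site that Otx2 and related homeodomain proteins bind. Each line is the 250 bases before the start of transcription, 5′ to 3′ along the gene, from RefSeq on GRCm38.p6, with TAATC on either strand in capitals. They lie at chr1:87394730-87394979 on the minus strand for Kcnj13, chr9:123678833-123679082 on the minus strand for Slc6a20a and chr19:8592932-8593181 on the plus strand for Slc22a8.
Kcnj13: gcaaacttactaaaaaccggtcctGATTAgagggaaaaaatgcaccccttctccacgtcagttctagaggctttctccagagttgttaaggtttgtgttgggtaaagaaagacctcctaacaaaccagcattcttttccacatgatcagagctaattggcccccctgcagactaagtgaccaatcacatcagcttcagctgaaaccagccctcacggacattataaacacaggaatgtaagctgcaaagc
Slc6a20a: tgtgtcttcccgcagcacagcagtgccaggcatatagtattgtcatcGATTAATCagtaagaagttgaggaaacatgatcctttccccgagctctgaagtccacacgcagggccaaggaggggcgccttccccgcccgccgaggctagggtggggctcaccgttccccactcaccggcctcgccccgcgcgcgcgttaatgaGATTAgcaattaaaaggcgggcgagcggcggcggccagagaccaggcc
Slc22a8: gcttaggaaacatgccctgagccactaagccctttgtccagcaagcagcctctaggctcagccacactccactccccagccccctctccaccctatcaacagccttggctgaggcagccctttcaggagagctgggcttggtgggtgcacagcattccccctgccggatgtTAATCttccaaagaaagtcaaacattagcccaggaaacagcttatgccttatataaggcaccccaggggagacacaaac
The core occurred 3 times for Slc6a20a, with 2 of these overlapping on opposite strands, and 1 time each for Kcnj13 and Slc22a8. Of the 6 members with a promoter in the table, 4 held it: these 3 genes and Otx2 itself, in 1 of its 4 promoters, whereas those of Aqp1 and Kl did not. By promoter that is 4 of 9, and among all 32851 promoters of that length 19.8% held the core. The longer site TAATCC was found in 1 of the 9 promoters (6.25% of all promoters), and AGGTCA, the half-site of T3 receptors, in 0 of the 9 (14.0%). The share of all genes with the core was not counted. These are matches of letters and not binding sites. The 3 genes were ranked on the T3 difference that chose the members and shown because they held the core. No link between the core and T3 is therefore read from them.

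Before the members are described, the arrays themselves need 1 comparison. Klf9, a transcription factor known to respond to T3, had signals of 3099.5, 2736.9, 3131.3 and 2267.6 with T3 at 6, 16, 24 and 48 h, against 1220.0, 1508.2, 1235.2 and 1497.6 in untreated cultures. The untreated culture of 24 h stood apart: the summed signal of 6 kept markers of astrocytes and Bergmann glia was 2648.8 there, against 609.9 in its T3 partner and 429.1 to 1001.2 on the 6 other arrays. In limma with the time point as a block, 0 of the 18015 kept probe-sets passed for T3 (985 had an unadjusted p under 0.05), and 2 passed without the 24 h arrays. The number of arrays limits the precision of every value that follows.

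Kcnj13, an inward rectifier potassium channel (Kir7.1) of the apical membrane, was higher with T3 at every time point. Its signals were 87.8, 759.3, 176.3 and 651.0 in T3 cultures at 6, 16, 24 and 48 h, against 43.6, 393.6, 37.6 and 281.3 in untreated cultures. The folds were 2.01, 1.93, 4.69 and 2.31, and the log2 difference averaged 1.35 ± 0.60 (SD, 4 pairs). The 24 h pair, with the untreated array that stood apart, gave the highest fold, and without that pair the mean was 1.06. The ranges of the 2 groups overlapped, because the signal varied more between time points than between treatments.

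Slc6a20a, a sodium-coupled transporter of proline, had signals of 10.5, 108.7, 28.5 and 194.3 with T3, against 3.4, 42.8, 14.9 and 98.0 without. The T3 culture was higher in all 4 pairs, by 3.09-, 2.54-, 1.91- and 1.98-fold, a mean log2 difference of 1.22 ± 0.32 (SD). Of its 4 signals at 6 and 24 h, 3 lay below the highest median of an array (17.7), and with 32 added to every signal the mean difference was 0.59. At 16 and 48 h, where the signal was well above that, the differences after this addition were 0.91 and 0.80.

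Slc22a8, the organic anion transporter Oat3 that clears drugs and metabolites from the cerebrospinal fluid, gave 28.2, 95.4, 38.3 and 235.2 with T3, against 15.5, 66.5, 19.0 and 154.5 without. All 4 pairs were higher with T3, and the mean log2 difference was 0.75 ± 0.23 (SD), or 0.42 with 32 added. Its dimmer probe-set, which was not kept, read 0.6, 26.5, 20.3 and 84.0 with T3, against 1.2, 14.9, 4.9 and 53.3 without, so it was higher in 3 of 4 pairs and near 0 in the pair of 6 h.

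Folr1, the folate receptor that carries folate across the epithelium, had signals of 359.8, 1185.9, 371.2 and 1240.2 with T3, against 183.2, 841.0, 260.0 and 988.0 without. The mean log2 difference was 0.58 ± 0.28 (SD). It was highest in the 6 h pair, at 0.97, and lay between 0.33 and 0.51 in the other 3 pairs. Folr1 was bright on all arrays, and adding 32 left its 6 h difference at 0.86.

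Aqp1, the water channel of the apical membrane, gave 72.8, 598.5, 137.4 and 660.6 with T3, against 46.3, 359.8, 115.8 and 573.2 without. Its log2 difference was 0.65 and 0.73 at 6 and 16 h, and 0.25 and 0.20 at 24 and 48 h. The mean was 0.46 ± 0.27 (SD), with the T3 culture higher in all 4 pairs.

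The other members did not share that direction in every pair. Clic6, of the family of intracellular chloride channel proteins, read 66.3, 545.1, 172.9 and 363.5 with T3, against 55.6, 623.5, 133.2 and 380.3 without. It was higher with T3 at 6 and 24 h and lower at 16 and 48 h, and its mean log2 difference of 0.09 ± 0.27 was smaller than its SD over the pairs. Its second probe-set read 42.3, 228.0, 85.5 and 149.5 with T3, against 29.5, 238.3, 69.8 and 154.9 without, with the same direction in each pair.

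Otx2, the homeodomain factor that maintains the choroid plexus, read 453.6, 829.1, 344.2 and 532.3 with T3, against 507.9, 705.8, 619.0 and 478.0 without. The log2 difference was -0.85 in the 24 h pair and between -0.16 and 0.23 in the other 3, so the mean of -0.16 ± 0.49 (SD) turned to 0.07 without 24 h. Otx2 is also made by precursors of granule cells, and the summed signal of 9 kept markers of these cells was 7401.2 with T3 and 9908.5 without at 24 h; their part in the value of Otx2 was not tested.

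Ttr, the gene of transthyretin, was read by 4 probe-sets with signals of 2712.5 to 4477.7 on all 8 arrays, close to the highest signals that any array gave (4675.5 to 5421). The brightest read 3836.8, 3981.7, 3884.4 and 3838.7 with T3, against 3880.6, 4477.7, 3415.2 and 4131.9 without, a mean log2 difference of -0.03 ± 0.15 (SD). No probe-set of Ttr spanned more than 1.31-fold over the 8 arrays, whereas the brightest of Folr1 spanned 6.77-fold and that of Kcnj13 20.2-fold. Whether the top of the scale limited Ttr was not tested. Kl, which encodes the FGF co-receptor klotho, stayed at 9.8 to 23.2 with T3 and 0.9 to 21.1 without on its brighter probe-set, around the median of an array or below it, and gave no usable difference.

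**Figure D1:**
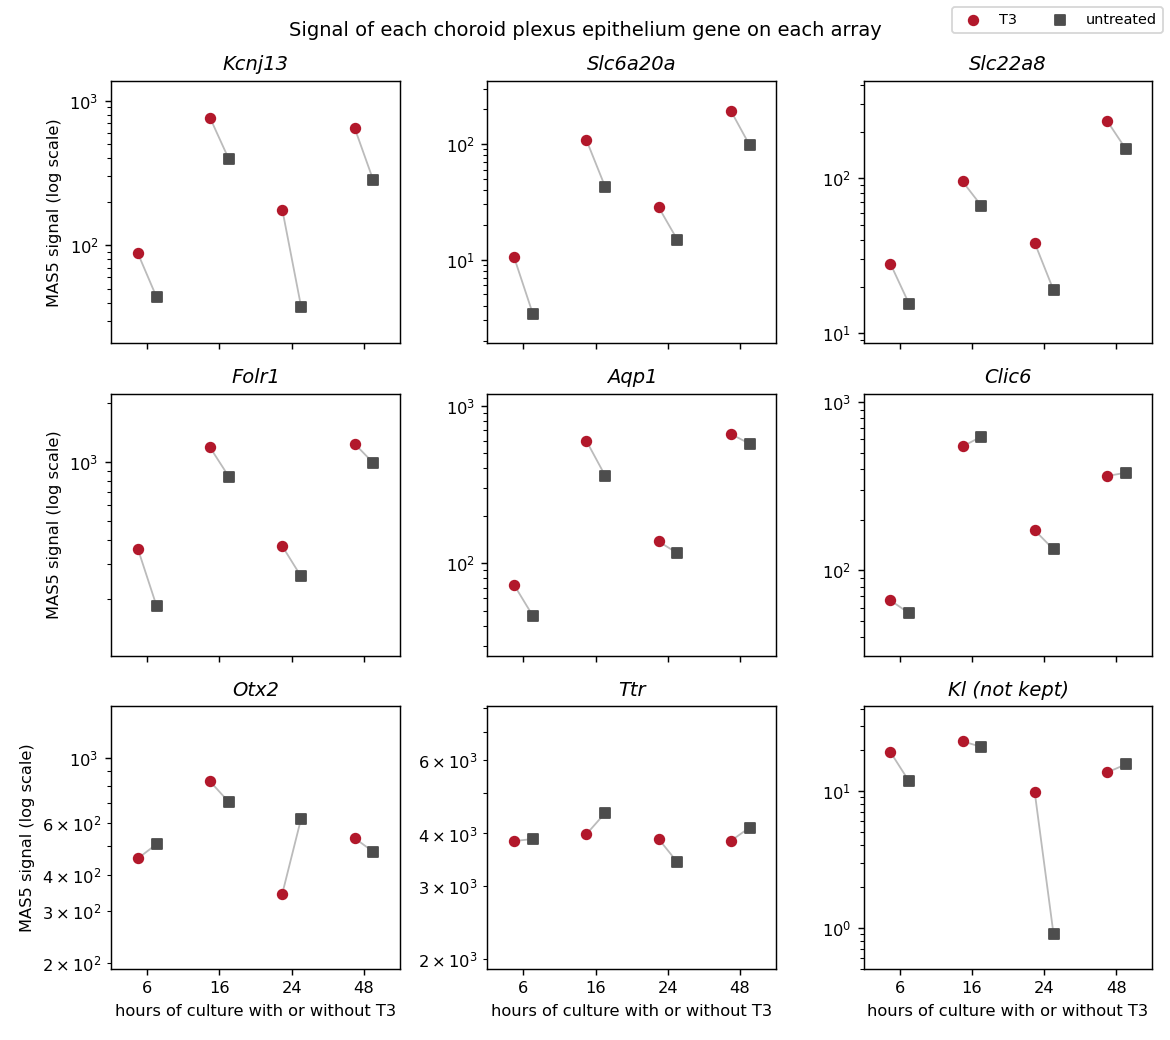
MAS5 signal (vertical log axes, each scaled to its gene) of the brightest probe-set of 9 genes on the 8 arrays, by hours in culture (horizontal axis). Red circles are T3 cultures and grey squares untreated cultures, and a line joins the arrays of 1 time point. Kcnj13, Slc6a20a, Slc22a8, Folr1 and Aqp1 lie higher with T3 in all 4 pairs, and 16 h lies above 6 h and 24 h for these genes and Clic6.

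Counted together, 5 of the 8 kept members were higher with T3 in all 4 pairs, and 6.91% of all kept genes were. On the brightest probe-sets no member was lower in all 4. A dimmer kept probe-set of Ttr was, with log2 differences between -0.17 and -0.004. Slc6a20a passed the filter on low signals only through its T3 arrays, with a mean log2 signal of 5.65 with T3 and 4.42 without where 4.95 was needed, and among the 7 members that reached that level without T3 as well 4 were higher in all 4 pairs. More than 2-fold higher were 2 of the 8 members at 6 h, 1 at 16 h, 2 at 24 h and 1 at 48 h, beside 0.432%, 0.412%, 2.81% and 0.755% of all kept genes. The median over the 8 members was 0.76, 0.51, 0.45 and 0.27 at 6, 16, 24 and 48 h, and over all kept genes it was 0.00, -0.01, 0.03 and -0.02. Since the contrast with T3 chose the members, these counts describe the choice. RNA was taken from whole cultures, in which more epithelial cells and more RNA per cell with T3 cannot be told apart.

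**Figure D2:**
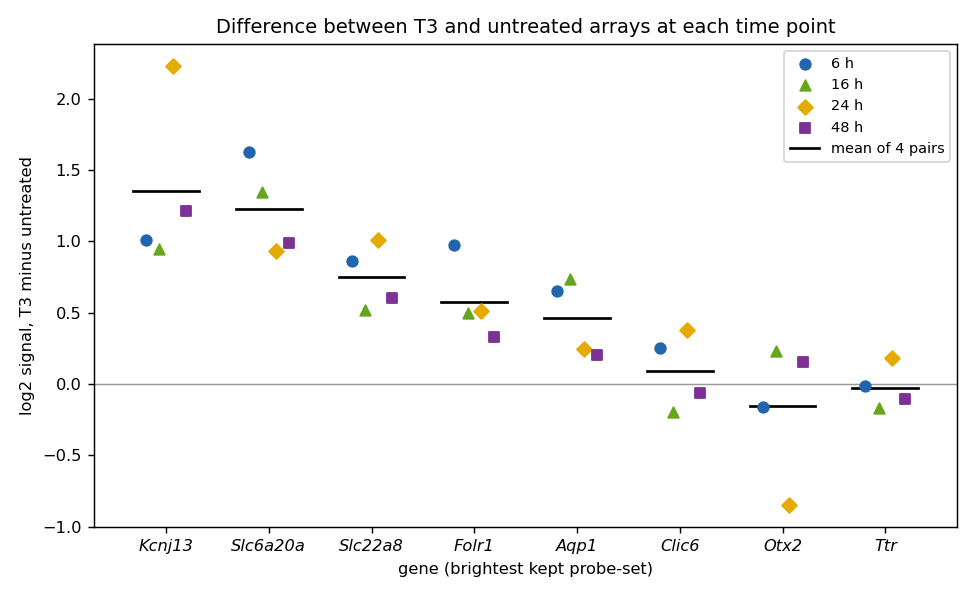
Log2 signal with T3 minus log2 signal without (vertical axis) for the brightest kept probe-set of 8 genes (horizontal axis). Each symbol is the pair of arrays of 1 time point and the black bar is the mean of the 4 pairs, 1.35 for Kcnj13 and -0.16 for Otx2.

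Within a pair the differences of the members can also be set beside that of Clic6, whose mean lay near 0 and which was picked after its values were seen. Relative to Clic6 in the same pair, Kcnj13 was higher with T3 by a further 1.26 ± 0.45 on the log2 scale, Slc6a20a by 1.13 ± 0.43, Slc22a8 by 0.66 ± 0.05 and Folr1 by 0.49 ± 0.27 (SD, 4 of 4 pairs each). Aqp1 exceeded Clic6 in 3 of 4 pairs, with a mean of 0.37 ± 0.44. These values restate the contrast on which the members were selected, so nothing is read from them.

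The members were selected on the contrast with T3. Earlier results of these data were known at that time, so their choice may not be independent of the hours of culture. All 8 kept members had both 16 h arrays above both 6 h arrays, as 37.1% of all kept genes did. All 8 had both 24 h arrays below both 16 h arrays (31.9% of all genes), and 6 of 8 had both 48 h arrays above both 24 h arrays (34.6%), all but Ttr and Otx2. The same 6 had both 48 h arrays above both 6 h arrays (39.8%). Their course over time was thus high, low and high again from 16 h to 48 h and not a steady climb. Ttr met the orderings around 16 h narrowly, at 3981.7 with T3 at 16 h against 3880.6 untreated at 6 h and 3884.4 with T3 at 24 h. Its dimmest probe-set also met them. Its other kept probe-sets did not, with 3934.7 and 3393.7 with T3 at 16 h against 4006.8 and 3603.9 with T3 at 24 h. In untreated cultures Kcnj13 was 393.6 at 16 h, 37.6 at 24 h and 281.3 at 48 h, so the 24 h culture lay below that of 6 h.

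A slope on the log2 of the hours was fitted with limma to all 8 arrays with treatment in the model and the time point as a random block. It was 1.35 ± 0.32 (SE) per doubling of the hours for Slc6a20a (adjusted p = 0.0610), 0.98 ± 0.30 for Aqp1 (adjusted p = 0.0987) and 0.90 ± 0.28 for Slc22a8 (adjusted p = 0.106). Clic6 (0.75), Kcnj13 (0.73) and Folr1 (0.57) had lower slopes, with limma adjusted p = 0.186, 0.288 and 0.200, while those of Ttr and Otx2 were 0.00 and -0.01. No member passed, 0 of 8, beside 2.09% of all kept genes that rose; 5 of the 8 had an unadjusted p under 0.05 with a rising slope, as 15.3% of all kept genes did. The 24 h arrays weighed on this: without them 5 of the 8 rose in the limma test (Kcnj13, Slc6a20a, Slc22a8, Folr1 and Aqp1), as did 15.6% of all kept genes. Without the 16 h arrays 3 rose (Slc6a20a, Clic6 and Aqp1, beside 6.48% of all genes), and without the 6 h or the 48 h arrays none did (0.0% of all genes). These counts of members with a time point left out were added after the data were seen. A T3 difference that changes with the hours was not called for any of the 18015 probe-sets in limma (245 at an unadjusted p under 0.05).

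Beside the members, a list of 72 further choroid plexus genes was read in 5 roles; 64 had a probe-set of their own and 50 were kept. This list was also drawn up with earlier results of these data known, so it is no independent check. For T3, 0 of the 50 passed in limma, and the adjusted p started at 0.815. An unadjusted limma p under 0.05 was found for 13 (4.85% of all kept genes). Of these, Stra6 and Cdh1 were lower with T3 and the rest higher. Of the 50, 12 were higher with T3 in all 4 pairs (6.91% of all kept genes) and 2 were lower in all 4 (7.92%). Their median difference was 0.13, -0.04, 0.33 and 0.03 at 6, 16, 24 and 48 h, beside 0.76, 0.51, 0.45 and 0.27 for the members chosen for theirs.

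Genes of ion and water transport had 12 kept of 15 listed. Car14, a carbonic anhydrase, had the highest mean T3 difference of all 50. It read 20.9, 217.2, 170.4 and 209.6 with T3, against 8.5, 167.7, 82.3 and 152.3 without, a mean log2 difference of 0.80 ± 0.19 (SE, limma adjusted p = 0.815), or 0.48 with 32 added to every signal. Slc12a4, the potassium chloride cotransporter Kcc1, differed by 0.46 ± 0.12 (SE, limma adjusted p = 0.815) and was also higher in 4 of 4 pairs. At the other end of this role stood Slc4a2, an anion exchanger, at -0.20. The sodium pump subunit Atp1b1 and the cotransporter Slc12a2 (Nkcc1) had means of 0.19 and 0.01.

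Genes of solute, vitamin and hormone transport had 12 kept of 18 listed, and held the lowest value. Stra6, a receptor through which cells take up retinol, read 7.5, 101.1, 19.1 and 100.6 with T3, against 21.3, 162.2, 25.7 and 185.8 without. It was lower with T3 in all 4 pairs, with a mean log2 difference of -0.88 ± 0.20 (SE, limma adjusted p = 0.815), or -0.47 with 32 added. Slc13a4, a sulfate transporter, was higher in all 4 pairs with a mean of 0.42 (0.28 with 32 added), and Slc15a2, a peptide transporter, had -0.30. The thyroid hormone transporter Slco1c1 was not kept, at 11.6 to 69.0 on the 8 arrays.

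The role of secreted proteins and receptors had 11 kept of 14. Sostdc1, a secreted inhibitor of Bmp and Wnt signalling, had a mean of 0.55 and was higher in 3 of 4 pairs, and Lbp, the lipopolysaccharide binding protein, had 0.42 and was higher in 4. Epithelial structure had 11 kept of 12. Calml4, a calmodulin-like protein, had a mean of 0.43, while Cdh1, the adhesion protein E-cadherin, read 30.8, 280.3, 308.2 and 195.0 with T3, against 49.1, 449.4, 286.9 and 346.4 without, a mean of -0.52 with only the 24 h pair higher. Lineage and multiciliation factors had 4 kept of 13. Rfx3, a regulator of ciliary genes, had a mean of -0.29, and the roof plate factor Lmx1a, the motile cilia factor Foxj1 and the coagulation factor gene F5, from the role above, stayed at or below 34.9 on every array.

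**Figure D3:**
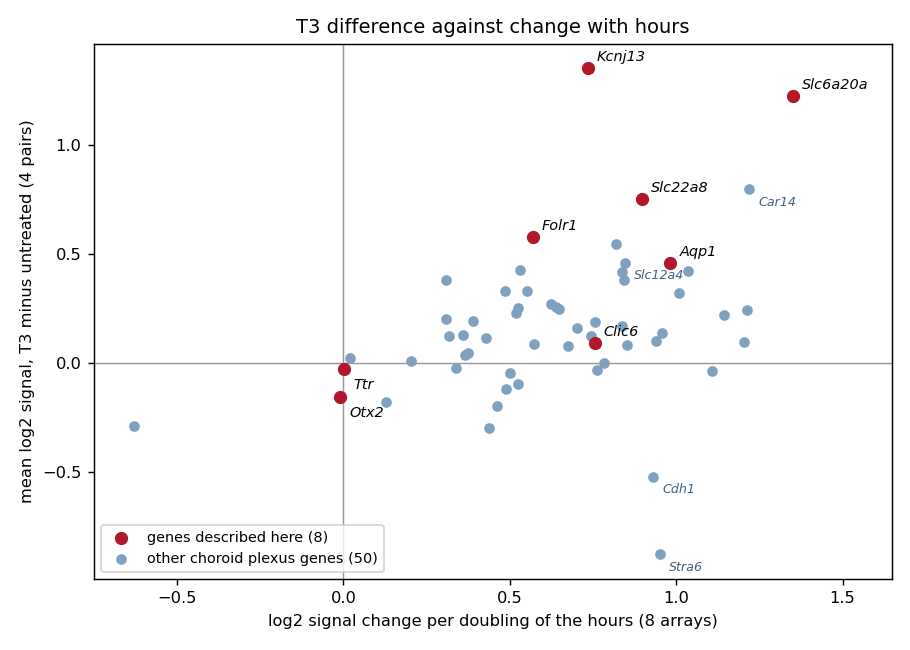
Mean log2 difference between T3 and untreated cultures over 4 pairs (vertical axis) against the log2 slope per doubling of the hours over 8 arrays (horizontal axis), for the 8 kept members in red and 50 other choroid plexus genes in blue. Most genes of both sets lie to the right of 0, and Kcnj13 and Slc6a20a lie above every other choroid plexus gene. The members were chosen on the difference of the vertical axis, so their height there describes that choice.

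Over the hours most of the further genes had the course seen for the members. Both 16 h arrays lay above both 6 h arrays for 49 of the 50 (37.1% of all genes), both 24 h arrays below both 16 h arrays for 41 (31.9%), and both 48 h arrays above both 24 h arrays for 44 (34.6%). This course was not particular to choroid plexus genes. In the same order, 8, 5 and 9 of 9 kept meningeal fibroblast markers met these orderings, as did 2, 4 and 4 of 4 kept endothelium markers. Of 9 kept granule cell precursor markers, 1 met each. In the limma slope, 5 of the 50 rose and 0 fell, beside 2.09% rising and 0.5% falling of all kept genes, and 33 had an unadjusted p under 0.05 with a rising slope (15.3% of all kept genes). The 5 were Col8a2, a collagen of basement membranes (1.21 ± 0.22 SE), Bmp4, a growth factor (1.01 ± 0.18), Slc12a4 (0.85 ± 0.15), Igf2, insulin-like growth factor 2 (0.74 ± 0.15), and Cst3, the protease inhibitor cystatin C (0.32 ± 0.06), with limma adjusted p = 0.0440 for 4 of them and 0.0474 for Igf2. Without the 24 h arrays 35 rose (15.6% of all genes), without 16 h 28 (6.48%), and without 6 h or 48 h 0 did.

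The label of the list was checked against markers of the cells such a culture could hold. Of 18 choroid plexus markers, 17 had a probe-set and 14 were kept. The 8 of them outside the member list summed to 673.2, 4395.3, 1755.7 and 4055.1 with T3 at 6, 16, 24 and 48 h, against 492.2, 4423.5, 1202.3 and 4026.6 without. Their totals were close between treatments at 16 and 48 h and higher with T3 at 6 and 24 h. Their median log2 difference was 0.11, -0.04, 0.56 and -0.12, and 6, 3, 8 and 2 of the 8 were higher with T3. Retinal pigment epithelium shares Ttr, Otx2 and Kcnj13 with the choroid plexus, but of its 8 markers only Rlbp1, also made by glia, was kept; Rpe65 reached 4.9 and Best1 5.6 at most. Of 8 markers of ependyma 3 were kept (Rsph1, Dynlrb2 and Ak7), and these reached 281.5.

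Markers of other cells also differed between arrays. Of 12 markers of meningeal fibroblasts 9 were kept, and they summed to 2672.4, 8383.7, 8045.2 and 11778 with T3 at 6, 16, 24 and 48 h, against 2869.2, 9505.6, 6246.5 and 12437 without. Col1a1, Col1a2, Lum and Foxd1 rose with the hours in the limma slope, 4 of 9 (2.09% of all genes). The median T3 difference of the 9 was -0.59, -0.14, 0.38 and -0.02 at 6, 16, 24 and 48 h. Its sign was opposite to that of the members at 6 and 16 h, and it was near 0 at 48 h. Higher with T3 were 3, 2, 8 and 3 of the 9 at these hours. Among them Slc13a3 had a mean difference of 0.27. The dim markers Slc47a1, Slc22a6 and Slc6a13, which were not kept, had means of 1.13, 0.82 and 0.46. Markers of granule cell precursors had a median slope of -0.84 and 0 of 9 passed in limma. The part of any of these cells in the values of the members was not tested.

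**Figure D4:**
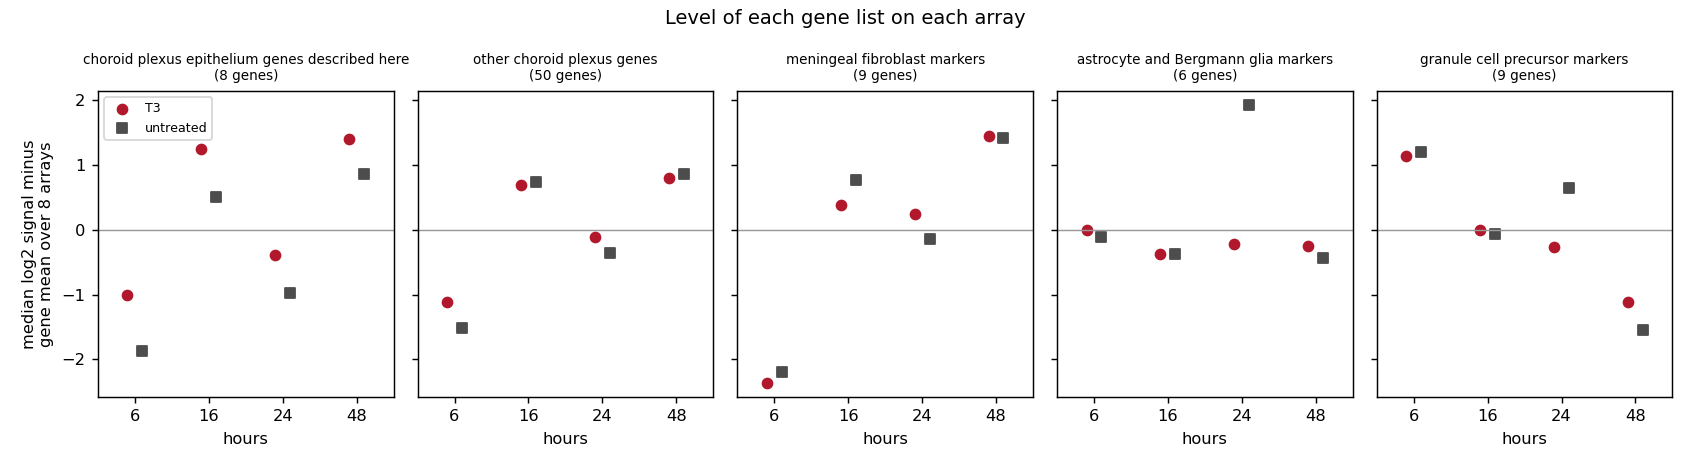
Median over the kept genes of each list of the log2 signal minus the mean of that gene over 8 arrays (vertical axis), by hours in culture (horizontal axis), with red circles for T3 and grey squares for untreated cultures. The members and the other choroid plexus genes share a course with a low 24 h. The granule cell precursor markers run down with the hours apart from the untreated 24 h array (0.64). That array is also high (1.93) for astrocyte and Bergmann glia markers.

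Over the 8 arrays, the mean profile of the members (log2 signal centred on each gene) was -0.97, 1.15, -0.37 and 1.26 with T3 at 6, 16, 24 and 48 h, against -1.62, 0.66, -0.95 and 0.84 without. Each member was compared with the mean of the other 7. Folr1 (Pearson r = 0.985), Aqp1 (0.984), Slc6a20a (0.955), Kcnj13 (0.931), Slc22a8 (0.929) and Clic6 (0.911) followed it closely, and Ttr (0.487) and Otx2 (0.362) did so less. The 8 arrays are pairs at 4 time points, so these r describe shared time points and depend on few points. The profile also holds the T3 difference on which the members were chosen. That includes Slc6a20a, which was kept only through its T3 arrays.

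The kept genes outside the list with the profile most like that of the members were Cpne8 (r = 0.996 over 8 arrays), Nudt7 (0.991), Mcrip2 (0.990), Cgnl1 (0.987), Atp1b1 (0.986), Slc2a12 (0.986), Plod1 (0.985), Erap1 (0.984), Bola3 (0.983) and Postn (0.982), of 10186 genes ranked. Cgnl1, the junction protein paracingulin, read 119.4, 430.7, 188.5 and 445.3 with T3, against 76.4, 356.6, 144.3 and 471.1 without. Slc2a12, a glucose transporter, read 28.4, 166.5, 65.9 and 212.7 with T3, against 21.4, 155.6, 44.2 and 157.6 without. It was higher in all 4 pairs with a mean log2 difference of 0.38 (0.25 with 32 added). The profile used for the ranking is itself higher with T3 at each time point. A T3 difference in a gene ranked this way is therefore no separate support. Of the 50 other choroid plexus genes, 11 were among the first 100 in this order, and their median r was 0.913, beside -0.04 for all ranked genes. Calml4 (r = 0.981), Car12 (0.977), Col8a1 (0.976) and Slc13a4 (0.976) were among them, whereas Rfx3 ran the other way (r = -0.843) and Slc15a2 had an r of 0.329.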

How the data were processed

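RNA from 8 cultures was amplified by the authors and hybridized to Affymetrix Mouse Genome arrays, 1 array per condition. The submitters' processing notes name GCOS and MAS5; the intensity that the authors deposited is a linear signal for every probe-set on every array, scaled by them to a trimmed mean of 100 (2% left out at each end). Columns of values left unused: 0. Of 45101 probe-sets, 64 controls were left out; 34945 carry 1 gene symbol, 932 several and 9160 none, and only single symbols name a gene.

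A floor of 1 was placed under the signals before taking log2. Probe-sets at or above the 60th percentile of mean log2 signal (log2 of 4.95) were kept, and the brightest stands for its gene. The T3 effect was fitted with limma 3.58.1 in R 4.3.3 on 4 pairs with the time point as a block. The pairing by cell batch is that of the methods, and within pairs the arrays' departures from their treatment mean had correlations of 0.905, 0.713, 0.520 and 0.878. The slope on log2 hours took the time point as a random block (correlation 0.569). Adjusted p values (Benjamini-Hochberg) cover every kept probe-set, and those under 0.05 passed. As no condition had a replicate, p values of the T3 effect measure the spread between pairs. Those of the slope also draw on the spread of arrays within a time point, although only 4 time points carry the hours. Every probe-set was given the same correlation in that fit. Slope p values may therefore be too small for probe-sets whose arrays within a time point are more alike. The fits were checked on simulated data.

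The members and gene lists were chosen with earlier results of these data known. Named are all members, the 5 highest and 5 lowest other choroid plexus genes by mean T3 difference, those with a called slope, and the 10 genes with the highest r to the mean member profile; other named genes, and all sequences shown, were chosen after their values were seen. Promoters are from the RefSeq table (GRCm38.p6); Folr1, Clic6, Ttr and Enpp2 were not searched. Alternatives covered scaling, filters, the low-signal floor, the variance model, the block, the time scale and each time point left out. Tables and figures used Python 3.11.15, pandas 2.3.3, numpy 2.4.6 and matplotlib 3.10.9. Detection calls and the cell line and animal experiments were not used here.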

Additional observations from a re-analysis of the deposited data

How the results depend on the processing

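The count of 5 members higher with T3 in all pairs was the same under quantile normalization, median centring, 32 added to every signal and each time point left out, settings added after the data were seen; with 3 pairs 12.0% to 15.5% of all kept genes are higher in all. The median member difference at 6 h moved to 0.30 with 32 added and to 0.52 with the mean over all probe-sets of a gene, and that at 48 h was 0.12 with median centring, against 0.27. Of 64 alternative values of the mean T3 difference of single members 62 stayed within 1 SD; Slc6a20a moved to 0.59 and Slc22a8 to 0.42 with 32 added. No other T3 count moved from 0 except 2 probe-sets without 24 h, and with no replicate block, that is, without the time point in the model, 0 probe-sets were called.

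The slope over the hours depended on most settings. Against 392 probe-sets, 5 other choroid plexus genes and 0 members called, quantile normalization gave 55 probe-sets and 0 of the other genes, 32 added 162 and 3, no filter 8 and 0, and no variance trend, hours in place of their log2, and untreated arrays alone 0 and 0. Arrays taken as independent gave 3458 probe-sets, 20 other genes and 1 member. Leaving out a time point gave 0 to 4981 probe-sets, 0 to 35 other genes and 0 to 5 members. For the members these settings were added after the data were seen. The slope of Clic6 ranged between -0.23 without the 6 h arrays and 0.97 without the 48 h arrays. The cause was not tested.

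With 1 array per condition, low signals limit Slc6a20a and Slc22a8 at 6 and 24 h (3.4 to 38.3, where array medians were 14.8 to 17.7) and leave Kl without a usable value.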
